A study of Mus musculus with 6 samples.

Results

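The Notch pathway genes described here are the receptors Notch1, Notch2 and Notch3, the ligands Jag1, Jag2 and Dll1, the glycosyltransferase Lfng, the DNA-binding protein Rbpj and the target genes Hes1 and Hey1. They were chosen by symbol, and each of the 10 was found among the 14766 gene names of the read annotations. Their reads were counted in Mvt1, a mouse mammary carcinoma line of the FVB/N strain that was derived from a tumour of mice carrying c-Myc and Vegf transgenes. The cells were stained for CD24, an anchored cell surface marker, and sorted into CD24- cells without surface CD24 and CD24+ cells with it. Messenger RNA was sequenced from 3 plates of each group, all grown untreated in serum-containing medium. Both groups come from the same line, and no independent sorts are described, so differences tied to CD24 cannot be told apart from others between these sorted cultures. The SDs and p-values below measure the spread between plates.

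Notch receptors are single-pass proteins at the cell surface that bind Jagged or Delta-like ligands on neighbouring cells. Binding opens the receptor to cleavage by ADAM proteases and then by gamma-secretase, and the released intracellular domain enters the nucleus and joins RBPJ and a Mastermind coactivator. RBPJ binds DNA with corepressors when no receptor domain is present, and with coactivators when it is, at genes such as Hes1, Hey1 and Nrarp. Fringe enzymes such as LFNG add sugars to the receptor and change which ligands activate it. In the mammary gland the pathway is known for its part in luminal cell fate, and forced receptor activity causes mammary tumours in mice.

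The libraries held 6491833 to 19100844 reads annotated to a gene, which were 71.8% to 74.3% of all mapped reads. CD24+ replicate 1 was the shallowest library and CD24+ replicates 2 and 3 were the deepest. Levels are given as counts per 1000000 gene reads (CPM) of a library, after TMM scaling. A library with 3 reads of a gene stood at 0.158 to 0.472 CPM, and a level under that cannot be told from 0. Cd24a, the gene of the sorted marker, was at 12.1, 11.4 and 6.97 CPM in the CD24- libraries, in order of replicate, and at 73.3, 85.7 and 72.7 CPM in the CD24+ libraries. The labels call the cells mammary epithelial. The luminal keratins Krt8 and Krt18 had reads in every library, while the epithelial adhesion genes Cdh1 and Epcam had at most 0.189 CPM. The summed level of 7 luminal markers was 1946 to 2127 CPM in CD24- and 837 to 966 CPM in CD24+ libraries, mostly Krt8 and Krt18, with 4 of 5 tested genes lower in CD24+ cells and the fifth, Esr1, higher. For scale, 22.3% of all 11125 genes tested passed as lower in this comparison and 23.8% as higher (edgeR, adjusted p below 0.05). Of the fibroblast or mesenchymal list, 5 of 6 tested genes were higher in CD24+ cells. Among these, Col1a1, Col1a2 and Dcn had enough reads for a test only through their CD24+ libraries. Such genes could hardly be found lower, so the count leans towards higher calls. The list summed to 3589 to 4450 CPM in CD24- and 4122 to 5004 CPM in CD24+ libraries, mostly Vim. The basal list summed to 0.525 to 1.46 CPM in CD24- and 6.73 to 14.2 CPM in CD24+ libraries, mostly Acta2. Acta2 was the only one of its genes tested, and had enough reads only through its CD24+ libraries. The haematopoietic list summed to 3.26 to 4.45 CPM in CD24- libraries, nearly all of it Itgam, and to at most 0.226 CPM in CD24+ libraries. The keratins Krt5 and Krt14 and the leukocyte gene Ptprc were at or near 0 in every library. The part of these marker differences in the Notch results was not tested.

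Of the 9 Notch pathway genes with enough reads for a test, Notch1, Notch3 and Rbpj were higher and Jag2 and Hes1 lower in CD24+ cells (edgeR quasi-likelihood test, adjusted p below 0.05 over all 11125 genes tested). In such bulk libraries fewer cells with a transcript and less of it per cell cannot be told apart. Notch2, Jag1, Dll1 and Lfng did not pass, and Hey1 had too few reads to be tested. Notch3 and Dll1 passed the filter on low counts only through their CD24+ libraries. The 5 genes called are 55.6% of the 9, and 46.1% of all genes tested were called in the same comparison. In all genes 23.8% were called higher and 22.3% lower. With a log2 fold-change of at least 1 in either direction as well, Notch3 and Jag2 were called, 2 of the 9, and 14.4% of all genes. The groups did not overlap for 6 of the 9 genes, while this was so for 57.3% of all genes tested. The median log2 fold-change of the 9 genes was -0.02, that of all genes 0.02. The share of Notch pathway genes called was therefore near the background, and the differences are described gene by gene.

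**Figure D1:**
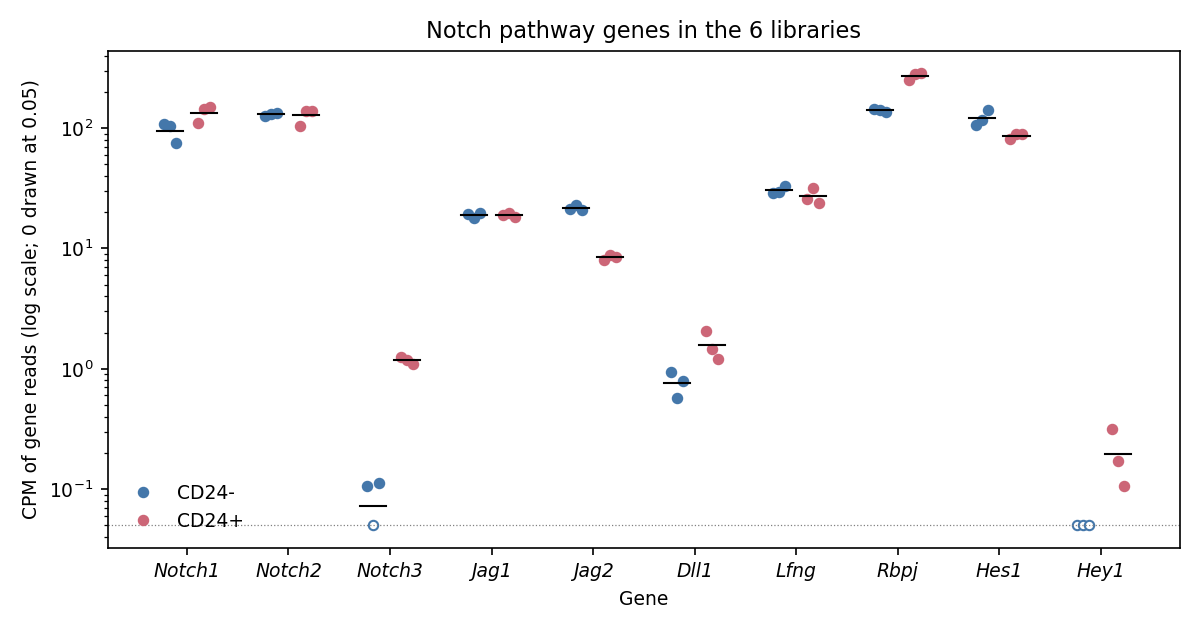
Level of each of the 10 genes in CPM of gene reads on a log axis, with 1 point for each library, a line at the mean of 3 libraries, CD24- in blue and CD24+ in red, and open points at 0.05 for libraries with no read. Jag2 separates downward and Rbpj upward without overlap, Notch2 and Jag1 overlap, and Notch3 and Hey1 have 2 and 0 reads over the CD24- libraries.

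Among the receptors, Notch1 was at 108, 104 and 75.1 CPM in CD24- libraries, in order of replicate here and below, and at 110, 144 and 150 CPM in CD24+ libraries. The groups did not overlap, but CD24+ replicate 1 lay just above the highest CD24- library, and CD24- replicate 3 lay below the other two. The log2 fold-change was 0.49 ± 0.15 (standard error, SE, by edgeR, adjusted p = 0.0205), a 1.41-fold higher level. Without CD24+ replicate 3 it was 0.40 with an adjusted p of 0.0927 (edgeR), and without CD24+ replicate 2 it was 0.44 with 0.0603, so the call rests on these libraries. Under an estimate built on the study's own steps the difference was 0.15 and did not pass (adjusted p = 0.200, limma). These steps were median coverage of a transcript, quantile normalization and a regularizer of 10 before the log. The regularizer shrinks the fold changes of genes with low coverage by design. Sizes from this estimate are therefore not comparable with those of the fit of counts. Notch1 reads lay on chromosome 2 of mm9 between 26313501 and 26359197, and 98.0% of them matched a Notch1 transcript of GENCODE M21.

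Notch2 was at 125, 131 and 135 CPM in CD24- libraries and at 104, 138 and 140 CPM in CD24+ libraries. The CD24+ values lay on both sides of the CD24- ones, with the shallow CD24+ replicate 1 lowest of all 6. The log2 fold-change was -0.03 ± 0.11 (SE; edgeR, adjusted p = 0.843), and its sign turned under some alternatives. Set against each other per exon length, Notch1 stood at 0.650, 0.600 and 0.422 of the Notch2 level in CD24- libraries and at 0.796, 0.790 and 0.808 in CD24+ libraries. The ratio of these receptors was thus almost the same in the 3 CD24+ plates, including replicate 1, where both were lowest of that group. The ratio was 1.46-fold higher than in CD24- plates. An exact two-sided permutation test gave p = 0.1, the smallest that 3 against 3 libraries allow. By median coverage the log2 fold-changes of Notch1 and Notch2 differed by 0.22. In the fit of counts they differed by 0.52, and by 0.35 without CD24- replicate 3. The estimate by median coverage changes several steps at once, among them the regularizer that shrinks fold changes, and their parts were not separated. This ratio and that of the Jagged ligands below were chosen after their values were seen.

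Notch3 had 1, 0 and 1 reads in CD24- libraries and 8, 21 and 21 reads in CD24+ libraries, or 1.26, 1.19 and 1.10 CPM there. Every CD24- library lay under the level of 3 reads and every CD24+ library above it. Over the pooled libraries the level was 16.8-fold higher in CD24+ cells, with an exact 95% interval of 4.42 to 143 that covers counting error only. The adjusted p was 4.67e-04 (edgeR) with the filter that Notch3 passed through its CD24+ libraries, and 2.39e-04 with no filter on low counts. After thinning, on reads of a single GENCODE gene and by median coverage it was not among the genes tested. All 52 reads matched a Notch3 transcript, and the CD24+ reads came from 8, 20 and 21 distinct sequences. They were spread over all 10 equal segments of the transcript. Pdgfrb and Acta2, of the mesenchymal and the basal list, were higher in CD24+ cells as well. Pdgfrb was at 49.9 to 77.8 against 3.37 to 5.58 CPM, and Acta2 at 5.49 to 12.5 against 0.105 to 0.787 CPM. Of the mesenchymal list 5 of 6 tested genes were higher, all but Vim (adjusted p = 0.248, edgeR). The share of all genes that passed as higher was 23.8%. Acta2 was the only basal gene tested, and it passed the filter only through its CD24+ libraries. The basal keratins Krt5 and Krt14 had at most 2 reads in any library. The part of Pdgfrb and Acta2 in the Notch3 difference was not tested. Even so, Notch3 in CD24+ cells was at 0.146 RPKM (CPM per kilobase of exon), against 9.45 for Notch1 and 11.8 for Notch2.

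Jag2, a Jagged ligand, had the largest decrease of the 9 genes tested in the fit of counts. It was at 21.3, 23.0 and 20.9 CPM in CD24- libraries and at 8.03, 8.83 and 8.57 CPM in CD24+ libraries. The groups were far apart and each was tight, with means of 21.7 ± 1.11 and 8.47 ± 0.409 CPM (SD, n = 3 each). The log2 fold-change was -1.35 ± 0.12 (SE; edgeR, adjusted p = 9.91e-06), a 2.56-fold lower level in CD24+ cells. Leaving out any library, values ran from -1.39 to -1.31. By median coverage, which changes several steps at once, it was -0.19 and still passed (adjusted p = 0.0149, limma). By that estimate Hes1, at -0.51, had the larger decrease. Jag2 reads lay on chromosome 12 of mm9 between 114146754 and 114167727, and 89.9% of them matched a Jag2 transcript of GENCODE M21. On reads of a single GENCODE gene the log2 fold-change was -1.28 (adjusted p = 1.50e-05, edgeR). Along the transcript, all 10 equal segments were lower in CD24+ cells without overlap between the groups, by -1.75 to -0.88 on the log2 scale.

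Jag1, the other Jagged ligand, was at 19.4, 18.1 and 19.9 CPM in CD24- libraries and at 18.9, 19.6 and 18.2 CPM in CD24+ libraries. The values of the groups were interleaved. The log2 fold-change was -0.02 ± 0.11 (SE; edgeR, adjusted p = 0.872), and its sign turned under some alternatives. Per exon length, Jag2 stood at 0.918, 1.06 and 0.879 of the Jag1 level in CD24- libraries and at 0.356, 0.377 and 0.394 in CD24+ libraries. Both ligands were therefore at like levels in CD24- plates, and in CD24+ plates Jag1 was the more abundant of the pair. The ratio was 2.53-fold lower in CD24+ cells (exact two-sided permutation p = 0.1, the smallest these libraries allow). By median coverage the log2 fold-changes of Jag2 and Jag1 differed by -0.22, and in the fit of counts by -1.33. The first estimate changes several steps at once, among them the regularizer that shrinks fold changes, and their parts were not separated. Per distinct 47-base window of a single transcript in place of exon length, the CD24- levels were 4.22 for Jag2 and 3.25 for Jag1, and the CD24+ levels 1.79 and 3.28, so near equality in CD24- cells depends on the length used while the order in CD24+ cells does not.

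**Figure D2:**
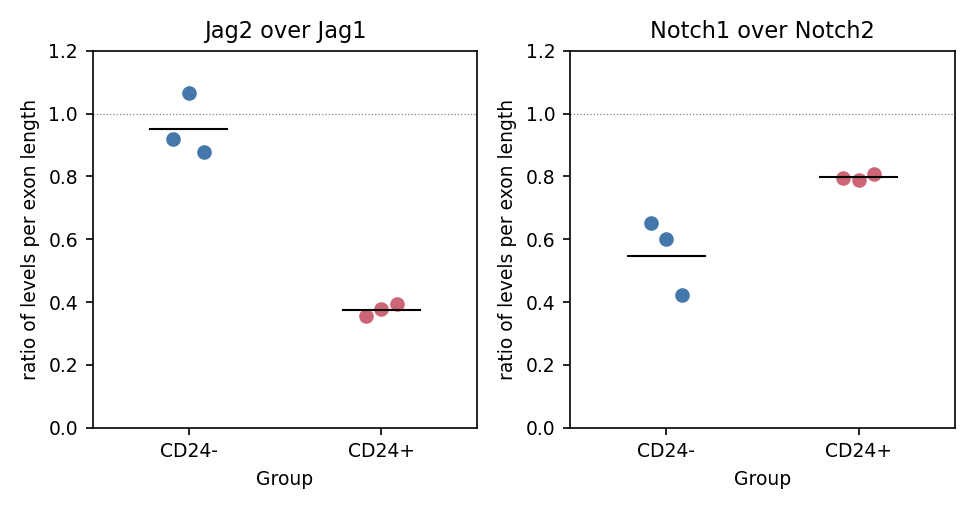
Ratio of the levels per exon length of Jag2 to Jag1 (left) and of Notch1 to Notch2 (right), with 1 point for each library, a line at the geometric mean of 3 libraries and a dotted line at equality. The Jag2 ratio lies near 1 in CD24- and at 0.356 to 0.394 in CD24+ libraries, and the Notch1 ratio lies at 0.422 to 0.650 in CD24- and at 0.790 to 0.808 in CD24+ libraries.

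Dll1, a Delta-like ligand, had few reads, 9, 6 and 7 in CD24- and 13, 26 and 23 in CD24+ libraries. In CPM these were 0.945, 0.568 and 0.787 against 2.05, 1.47 and 1.21, without overlap. The log2 fold-change of 0.94 ± 0.36 (SE; edgeR, adjusted p = 0.0522) did not pass. With each distinct sequence counted once it was 1.11 and passed (adjusted p = 0.0239, edgeR), with the same Dll1 counts, since no Dll1 sequence occurred more than once in a library. Dll1 overlaps the long noncoding gene A930024N18Rik of the other strand, and the counts carry no strand, so reads in the overlap are uncertain. On the reads that matched a single GENCODE gene the log2 fold-change was 0.83 and did not pass (adjusted p = 0.0877, edgeR).

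Lfng, a Fringe enzyme, was not called. It was at 29.1, 29.4 and 33.4 CPM in CD24- libraries and at 25.7, 32.1 and 23.97 CPM in CD24+ libraries. The groups overlapped through CD24+ replicate 2. The log2 fold-change was -0.17 ± 0.13 (SE; edgeR, adjusted p = 0.313). Without CD24+ replicate 2 it was -0.32 (adjusted p = 0.0565, edgeR), and without CD24+ replicate 3 and CD24- replicate 3 in turn it was -0.09 and -0.10, so single libraries decide its size. Counting each distinct sequence once gave -0.05 and median coverage -0.03, neither of which passed.

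Rbpj, the DNA-binding protein of the pathway, rose. It was at 145, 141 and 136 CPM in CD24- libraries and at 251, 282 and 286 CPM in CD24+ libraries. The lowest CD24+ library lay well above the highest CD24- library. The means were 141 ± 4.40 and 273 ± 19.3 CPM (SD, n = 3 each), and the log2 fold-change was 0.95 ± 0.08 (SE; edgeR, adjusted p = 6.99e-06), a 1.93-fold higher level. Leaving out any library gave values from 0.90 to 1.00. Counting each distinct sequence once gave 0.64 (adjusted p = 2.01e-04, edgeR), and the estimate from median coverage gave 0.71 (adjusted p = 0.00114, limma).

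The reads annotated to Rbpj are fewer than those with Rbpj sequence. Of 33803 reads that matched an Rbpj transcript of GENCODE M21, 45.3% were annotated to Rbpj on chromosome 5 and 47.7% to Cntnap2, a neuronal adhesion gene on chromosome 6. The latter reads fell within 3861 bases of mm9, between 46476933 and 46480793, and made up 76.1% of all Cntnap2 reads. The reference annotation lists a processed pseudogene of Rbpj, Rbpj-ps3, on chromosome 6, and 45.5% of the reads placed in Cntnap2 also matched its transcript, as did 28.6% of those placed in Rbpj. For the other genes described here, at most 11.1% of reads with the gene's sequence were annotated elsewhere.

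The placement followed the strand of the read. Reads annotated to Rbpj were 87.4% in the sense of the transcript, and reads of Rbpj sequence annotated to Cntnap2 were 12.2% sense. In both places the reads lay mostly on the plus strand of the genome, at 87.4% and 87.8%. For Notch1, Notch2, Jag1, Jag2, Lfng and Hes1, 48.9% to 52.4% lay on the plus strand. A coding read and its reverse complement are shown to make this visible. They are the pair within a single exon with the most reads in its less frequent strand, both are entirely lower case, and both come from exon 7 of transcript ENSMUST00000201912.3, starting at base 689. The first was placed at chr5:54037196-54037242 of mm9 on the plus strand and annotated to Rbpj, with 0, 3 and 1 reads in CD24- and 1, 2 and 5 reads in CD24+ libraries. The second was placed at chr6:46480357-46480403 of mm9 on the plus strand and annotated to Cntnap2, with 1, 2 and 1 reads and 3, 3 and 2 reads.
Rbpj sense read: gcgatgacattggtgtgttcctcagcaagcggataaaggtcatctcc
Reverse complement placed in Cntnap2: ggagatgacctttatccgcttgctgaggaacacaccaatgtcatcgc
Of 2628 distinct sense sequences annotated to Rbpj, 1281 had their reverse complement annotated to Cntnap2.

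The reads of Rbpj sequence placed in Cntnap2 differed between the groups much as those placed in Rbpj did. They were at 155, 149 and 142 CPM in CD24- libraries and at 249, 278 and 279 CPM in CD24+ libraries. Among the reads of both places, Cntnap2 held 52.4% to 52.7% in CD24- and 50.5% to 51.2% in CD24+ libraries. When both were counted as Rbpj, which was chosen once the data had been seen, the log2 fold-change was 0.90 ± 0.08 (SE; edgeR, adjusted p = 1.07e-05). On the reads that matched the transcripts of a single GENCODE gene it was 0.92 (adjusted p = 1.10e-05, edgeR). The level of Rbpj against other genes depends on these choices, while its difference between the groups passed under all of them.

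**Figure D3:**
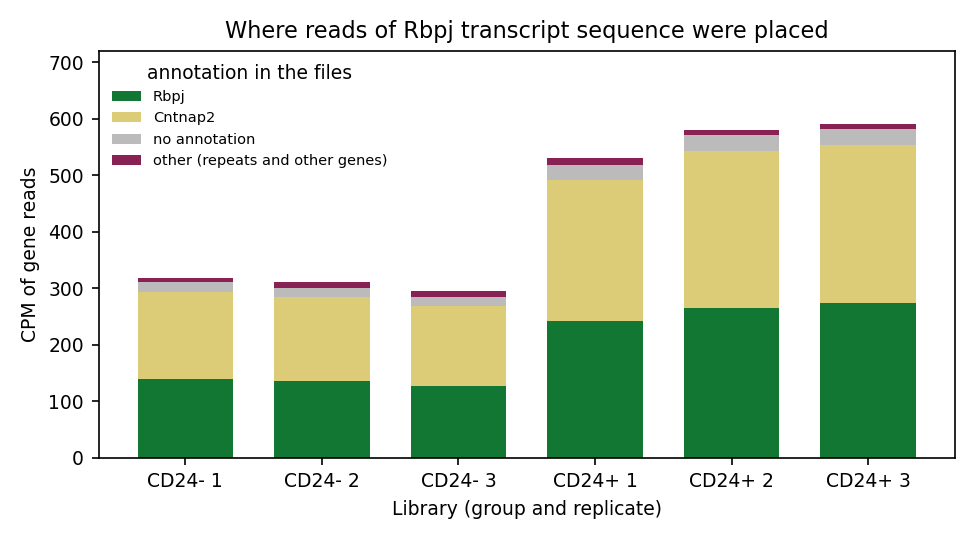
Stacked bars for each library of the reads that matched an Rbpj transcript, in CPM of gene reads, coloured by the annotation of the read. About equal parts were annotated to Rbpj and to Cntnap2 in every library, and both parts are higher in the 3 CD24+ libraries.

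Among the targets, Hes1, a transcriptional repressor, fell in CD24+ cells. It was at 106, 117 and 141 CPM in CD24- libraries and at 81.0, 88.7 and 89.5 CPM in CD24+ libraries. The groups did not overlap, and the CD24- libraries were more spread, with means of 121 ± 17.8 and 86.4 ± 4.65 CPM (SD, n = 3 each). The log2 fold-change was -0.49 ± 0.11 (SE; edgeR, adjusted p = 0.00390), a 1.41-fold lower level. Leaving out any library gave -0.58 to -0.37, and median coverage gave -0.51 (limma, adjusted p = 0.0101). Hes1 reads lay on chromosome 16 of mm9 between 30065405 and 30067878, and 84.0% of them matched a Hes1 transcript of GENCODE M21. This was the lowest share of the 10 genes. On reads of a single GENCODE gene the log2 fold-change was -0.57 (adjusted p = 0.00232, edgeR). All 10 segments of the Hes1 transcript were lower in CD24+ cells, 9 of them without overlap.

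Hey1, a related repressor, had no read in the CD24- libraries and 2, 3 and 2 reads in the CD24+ libraries. No library exceeded 3 reads, so a difference in Hey1 was not detectable at this depth. No Hey1 sequence occurred more than once in a library, and all 7 reads matched a Hey1 transcript.

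**Figure D4:**
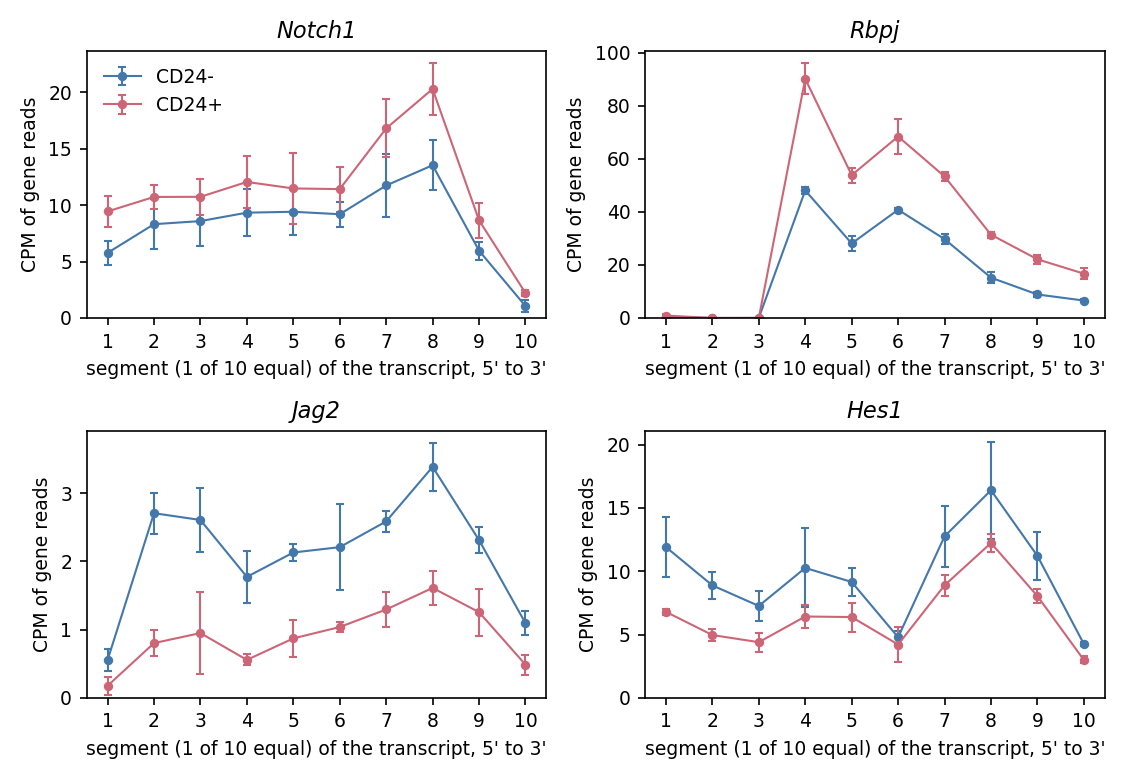
Reads that matched a single GENCODE gene along the transcripts of Notch1, Rbpj, Jag2 and Hes1, summed in 10 equal segments from the 5′ to the 3′ end and given as the mean CPM of 3 libraries with the SD as bars. Jag2 and Hes1 lie lower and Notch1 higher in CD24+ cells in all 10 segments, with the Notch1 libraries of the groups apart in 4 of them, and Rbpj has almost no such reads in its first 3 segments and lies higher from the fourth on.

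Compared per exon length, Hes1 was the most abundant of the 10 genes, at 59.5 ± 8.75 RPKM in CD24- and 42.4 ± 2.28 RPKM in CD24+ cells (SD, n = 3 each). In CD24- cells Lfng (12.2 ± 0.953), Notch2 (12.1 ± 0.434) and Rbpj (11.04 ± 0.345) followed. Lfng and Notch2 did not differ beyond their spread. Notch1 was at 6.71 ± 1.25 RPKM, and Jag1 (3.28 ± 0.162) and Jag2 (3.12 ± 0.159) were lower, again within their spread of each other. In CD24+ cells Rbpj was second at 21.4 ± 1.51 RPKM, and Notch2 (11.8 ± 1.86), Lfng (10.9 ± 1.71) and Notch1 (9.45 ± 1.51) overlapped. Jag1 was at 3.24 ± 0.120 RPKM, Jag2 at 1.22 ± 0.0588, Dll1 at 0.373 ± 0.101, Notch3 at 0.146 ± 0.00960 and Hey1 at 0.0602 ± 0.0329. Counted per distinct 47-base window of a single transcript, Rbpj reached 55.8 ± 2.30 in CD24- and 102 ± 5.46 in CD24+ cells. These counts take all reads that matched the transcript, and for Rbpj they include reads placed in Cntnap2. Hes1 was then at 68.1 ± 11.5 and 45.9 ± 1.28, so in CD24+ cells Rbpj lay above it. Notch1 (14.1 ± 2.12) lay above Notch2 (10.6 ± 1.78) in CD24+ cells. The place of Notch1 in this order therefore depends on the length used. The places of Rbpj and Hes1 depend on the length and on the reads counted.

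The other genes of the pathway were taken from a list of 63 written from general knowledge. Of these, 56 had an annotation in the files, 4 of them under an older name, and 46 had enough reads for the test. In CD24+ cells 13 were higher and 11 lower, so 52.2% of the 46 were called, against the 46.1% of all genes. When repeats of a sequence were ignored 11 were higher and 4 lower, with 2146 and 1549 of all genes, and without CD24- replicate 2 these were 11 and 5, with 2257 and 1959 of all genes. In all genes the main counts were 2652 and 2478. The median log2 fold-change was -0.07.

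**Figure D5:**
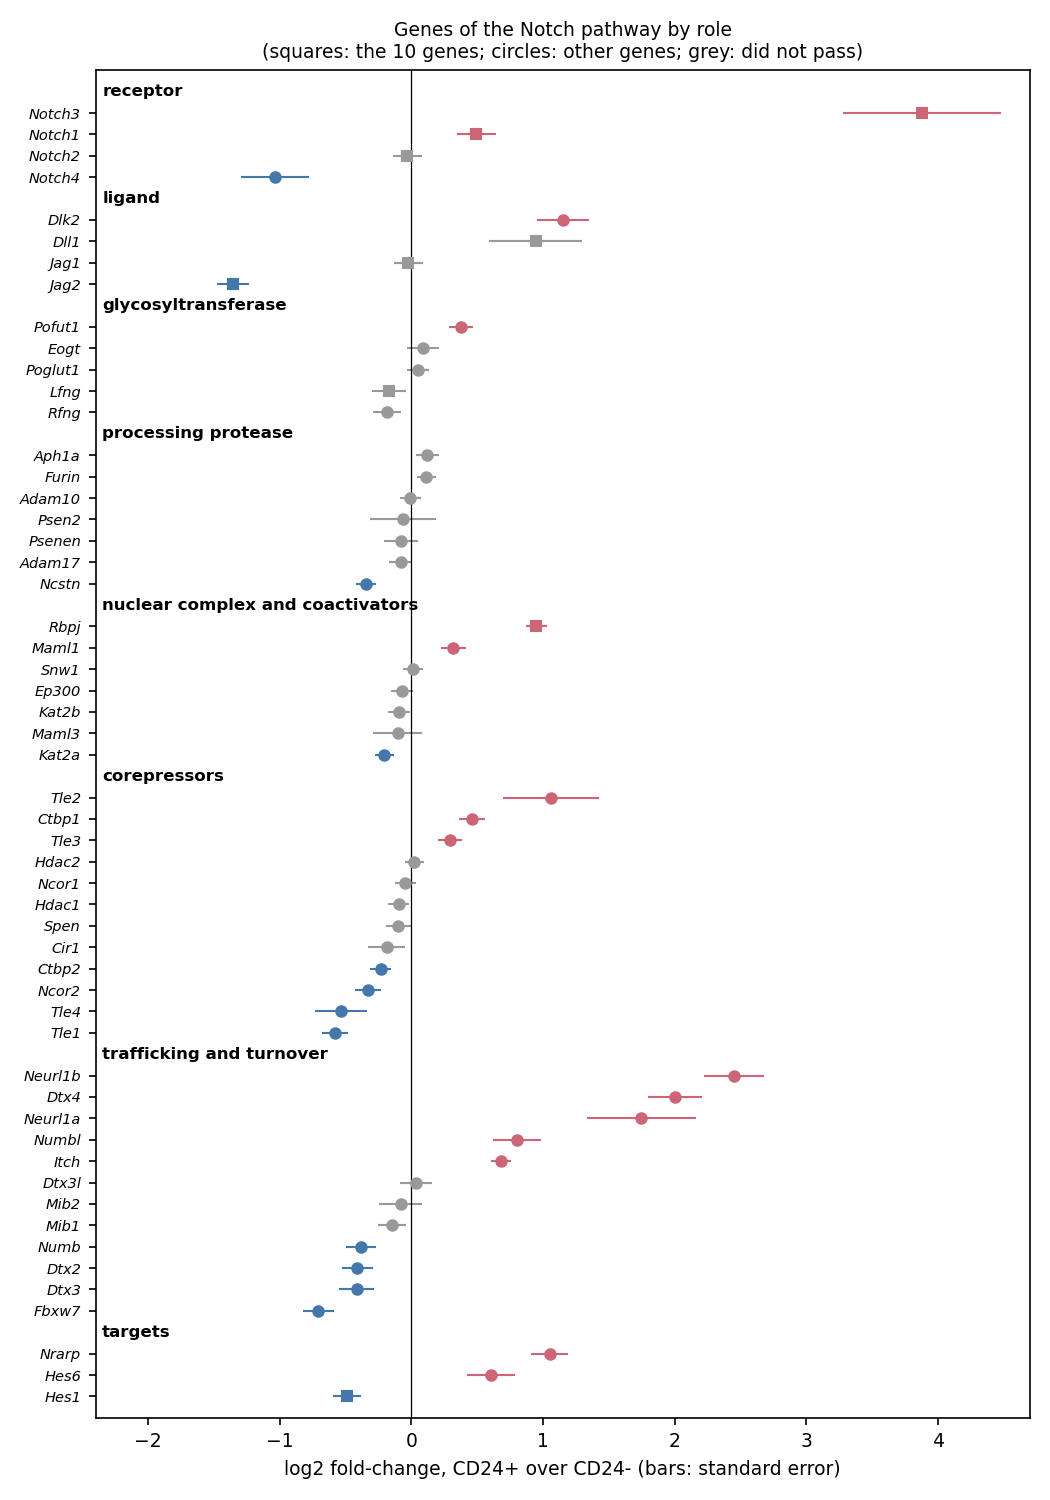
Fitted log2 fold-change of CD24+ over CD24- cells with its standard error for the 9 genes (squares) and 45 of the other pathway genes (circles) that were tested, grouped by role, in red where higher, blue where lower and grey where the test was not passed. Processing proteases lie between -0.34 and 0.12, while ubiquitin ligases of the trafficking group reach from -0.71 for Fbxw7 to 2.45 for Neurl1b.

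The remaining receptor, Notch4, was low and fell. It was at 2.31, 2.93 and 2.70 CPM in CD24- libraries and at 1.57, 1.24 and 1.21 CPM in CD24+ libraries, without overlap. Its log2 fold-change was -1.04 ± 0.26 (SE; edgeR, adjusted p = 0.00781). After every library was thinned to the reads of the shallowest it was -0.74 and did not pass (adjusted p = 0.125, edgeR). Notch4 is known for its expression in endothelium. The endothelial list summed to 4.83 to 5.87 CPM in CD24- and 1.63 to 3.15 CPM in CD24+ libraries, with Kdr and Tie1 at or near 0 in all of them. Of its 3 tested genes 1 was lower, Cdh5, while 22.3% of all genes were called lower. Cdh5 had enough reads for a test only through its CD24- libraries. Of the other ligands, Dlk2, a Delta-like protein without the domain that activates Notch, rose from 7.35, 9.84 and 13.04 CPM to 23.1, 25.6 and 18.8 CPM (log2 fold-change 1.15, adjusted p = 9.56e-04, edgeR), and by median coverage the value was 0.42 and passed (adjusted p = 0.0201, limma). Dll3, Dll4 and Dner had too few reads to be tested.

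Of the enzymes that modify or cut the receptors, 2 of 12 passed, while 46.1% of all genes tested did. Of 4 other glycosyltransferases tested, only Pofut1, which adds fucose to Notch, passed. It rose by 0.38 on the log2 scale, from 67.5 ± 6.82 to 88.3 ± 2.91 CPM (SD, n = 3 each; adjusted p = 0.00692, edgeR). By median coverage the value was 0.17 and did not pass (limma, adjusted p = 0.0779). Of 8 processing proteases and their subunits tested, only Ncstn, the nicastrin subunit of gamma-secretase, passed. It was at 139, 142 and 146 CPM in CD24- and at 110, 110 and 118 CPM in CD24+ libraries (log2 fold-change -0.34, adjusted p = 0.00347, edgeR). The cleaving proteases Adam10 and Adam17 and the gamma-secretase subunits Psen2, Aph1a and Psenen had log2 fold-changes from -0.08 to 0.12 and did not pass.

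In the nuclear complex, 2 of 6 other genes tested passed, or 33.3% against the 46.1% of all genes. Maml1, a Mastermind coactivator, rose by 0.32 and the acetyltransferase Kat2a fell by 0.20 on the log2 scale. Maml2 had no annotation in the files, and its reads were found by matching sequences to GENCODE transcripts, with 55, 71 and 41 reads in CD24- and 122, 316 and 441 reads in CD24+ libraries. Fitted among reads of a single GENCODE gene, its log2 fold-change was 1.79 ± 0.17 (SE; edgeR, adjusted p = 1.68e-05). Kdm5a, a demethylase of the corepressor group, had no annotation either, and had 1875, 1881 and 1518 reads in CD24- and 849, 2509 and 2830 reads in CD24+ libraries by the same matching. It fell by 0.39 on the log2 scale relative to all reads of a single gene (adjusted p = 0.00376, edgeR). Of 12 corepressors tested, 3 rose and 4 fell, so 58.3% were called against the 46.1% of all genes, of which 23.8% were higher and 22.3% lower. The Groucho family split, with Tle2 and Tle3 higher and Tle1 and Tle4 lower, and so did the C-terminal binding proteins, with Ctbp1 higher and Ctbp2 lower. Tle2 was at 25.2, 25.6 and 7.98 CPM in CD24- libraries and at 32.1, 31.9 and 58.6 CPM in CD24+ libraries (log2 fold-change 1.06 ± 0.36 SE, edgeR with adjusted p = 0.0350). Each group held 1 library far from its others. Without CD24+ replicate 3 the value was 0.68 and did not pass (adjusted p = 0.181, edgeR), and without CD24- replicate 3 it was 0.71 and passed (adjusted p = 0.0382, edgeR). With all libraries the Tle2 call was also lost with DESeq2 (1.04, adjusted p = 0.131), with repeats of a sequence ignored (1.10, edgeR, adjusted p = 0.0501) and by median coverage (0.31, adjusted p = 0.0636, limma).

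In the fit of counts, genes of receptor and ligand trafficking and turnover included the 3 largest changes among the 46 annotated genes tested, in Neurl1b, Dtx4 and Neurl1a. Of 12 tested, 5 rose and 4 fell, so 75.0% were called against the 46.1% of all genes. Neurl1a and Neurl1b, Neuralized ubiquitin ligases that act on ligands, both rose. Neurl1b was at 1.36, 1.61 and 1.24 CPM in CD24- and at 6.77, 9.05 and 7.31 CPM in CD24+ libraries (log2 fold-change 2.45 ± 0.23 SE, edgeR with adjusted p = 1.40e-05). Neurl1a was low, at 1.05, 0.379 and 0.562 CPM against 1.26, 2.66 and 2.37 CPM (log2 fold-change 1.75 ± 0.41 SE, edgeR with adjusted p = 0.00581). It passed the filter through its CD24+ libraries and was not among the genes tested after thinning, on reads of a single GENCODE gene or by median coverage. With no filter on low counts its log2 fold-change was 1.75 (adjusted p = 0.00260, edgeR). The Mind bomb ligases Mib1 and Mib2, which act on the same step, did not pass, with log2 fold-changes of -0.15 and -0.08. Dtx4, a Deltex ubiquitin ligase, rose from 9.97, 8.89 and 6.07 CPM to 35.1, 26.0 and 40.1 CPM (log2 fold-change 2.005 ± 0.21 SE, edgeR with adjusted p = 2.69e-05). By median coverage Neurl1b and Dtx4 were 0.29 and 0.23 higher on the log2 scale, and both passed (adjusted p = 0.00430 and 0.00424, limma). Nrarp (0.52) and Dlk2 (0.42) had larger values by that estimate, so the order belongs to the fit of counts. The Deltex genes Dtx2 and Dtx3 fell. Numbl and Itch rose, while Numb, an inhibitor of Notch, and Fbxw7, which marks the intracellular domain for degradation, fell.

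Of the other genes listed as targets from general knowledge, 2 had enough reads, Nrarp and Hes6. Both rose, while 23.8% of all genes were called higher. Whether Hes6 responds to Notch in these cells was not tested. Hes2, Hes3, Hes5 and Heyl had no annotation. Nrarp, a direct Notch target that limits the nuclear complex, was at 37.7, 42.0 and 28.9 CPM in CD24- and at 80.6, 65.9 and 80.8 CPM in CD24+ libraries (log2 fold-change 1.05 ± 0.14 SE, edgeR with adjusted p = 1.59e-04), and by median coverage it was 0.52 higher (adjusted p = 0.00578, limma). Hes6 was 0.60 higher on the log2 scale (adjusted p = 0.0212, edgeR), with overlapping groups. Nrarp and Hes1 thus moved in opposite directions, without overlap between the groups for either. Hes7 and Hey2 had too few reads to be tested.

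Promoter windows of the RefSeq table (build GRCm38.p6) were searched over the 250 bases before the start for GTGGGAA, the core bound by RBPJ, and for CACGNG, a site bound by HES proteins, on both strands. Windows were found for 8 of the 10 genes, all but the targets Hes1 and Hey1. GTGGGAA occurred in 1 of these genes, Lfng, and in 5.42% of all windows. CACGNG occurred in Notch2, Notch3, Jag1, Dll1 and Lfng, and in 23.5% of all windows. Notch1, Jag2 and Rbpj, which were called, held neither in these windows, and Hes1, also called, could not be searched. The windows of Lfng and of the target Nrarp are shown. The first alone of the 8 holds both motifs, and Nrarp had the larger increase of the 2 other genes listed as targets and tested. Capitals mark the motifs. In Lfng, at chr5:140607091-140607340 on the plus strand, GTGGGAA begins 109 bases before the start and overlaps a CACGNG match that begins at 112. Nrarp, at chr2:25180508-25180757 on the plus strand, has a CACGNG match that begins 108 bases before the start and no GTGGGAA.
Lfng: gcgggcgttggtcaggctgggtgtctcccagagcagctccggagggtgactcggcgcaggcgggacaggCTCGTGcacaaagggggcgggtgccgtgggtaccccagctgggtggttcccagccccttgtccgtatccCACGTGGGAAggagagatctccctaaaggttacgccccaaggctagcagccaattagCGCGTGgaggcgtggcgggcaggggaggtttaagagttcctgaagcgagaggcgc
Nrarp: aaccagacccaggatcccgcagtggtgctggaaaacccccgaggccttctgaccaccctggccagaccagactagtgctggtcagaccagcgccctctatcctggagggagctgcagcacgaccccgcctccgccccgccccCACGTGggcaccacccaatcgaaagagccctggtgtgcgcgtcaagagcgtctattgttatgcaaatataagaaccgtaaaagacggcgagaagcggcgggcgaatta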

How the data were processed

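Total RNA from 3 plates of each sorted group (RIN above 9 per the study) was made into unstranded TruSeq libraries and sequenced as 51-base single-end reads. The authors trimmed 2 bases from each end, collapsed identical reads, mapped the 47-base sequences by exact match and gave each a single location and annotation. They deposited the count of every mapped sequence for each library, neither normalized nor pooled. The submitters' processing notes name the build mm9. Exact matching loses reads across exon junctions and over sequence variants, and a gene with a near-identical copy can lose reads to it.

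Counts were summed per annotation, and reads annotated to repeats, small RNA or nothing were left out. Genes kept by filterByExpr were tested with edgeR 4.0.16 (TMM, quasi-likelihood F test, Benjamini-Hochberg, threshold 0.05) in R 4.3.3. The standard error is the log2 fold-change divided by the root of F. The alternatives used DESeq2 1.42.0, limma 3.58.1 and other counts, filters and samples. RPKM is CPM per kilobase of the union of GENCODE M21 exons. Reads were matched to GENCODE M21 transcripts by exact sequence. The edgeR fit was tested on simulated counts with known changes of 1 or 2 on the log2 scale, in 100 genes each. It recovered 96% and 100% of them. Genes with low counts were not changed, and far fewer genes were changed than were called here. The simulation does not cover those settings.

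The genes, the wider list, the marker lists and the tests were chosen with earlier results of these data known. Named from the wider list are genes called with an absolute log2 fold-change of at least 1 and the largest change of each role. Others named beside a count of a role, the intermediate members of a family, Maml2 and Kdm5a were added after their values were seen. A gene of the wider list is counted but not reported here by name. A chi-square comparison of counts found more than sampling noise between libraries of a group, and each was kept as a replicate. The value was 1.74 per degree of freedom for CD24- replicates 1 and 2, and 9.81 to 16.0 for the other pairs within a group. CD24- replicates 1 and 2 were thus much closer to each other than to replicate 3. The comparison cannot show whether they are fully independent plates.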

Additional observations from a re-analysis of the deposited data

Results flagged for a closer look

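Reads with the sequence of an Rbpj transcript that were annotated to Cntnap2 lie outside the rule that sums reads by symbol. There were 16127 of them over the 6 libraries, beside 15318 such reads annotated to Rbpj. They were looked at because the rule leaves this signal out. Their level was 149 ± 6.38 CPM in CD24- and 269 ± 17.1 CPM in CD24+ libraries (SD, n = 3 each). The part of a pseudogene transcript in these reads was not tested.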

How the results depend on the processing

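The replicate numbers are shared by the groups, and no pairing of the plates is described. The deviations of libraries 1, 2 and 3 from their group means had correlations of 0.0138, -0.283 and -0.330. No shared effect of a replicate number was therefore visible. Whether plates of the same number were handled together cannot be told from these values. Fitted with the replicate block, 4493 genes, 5 of the 9 Notch pathway genes and 21 of the other pathway genes were called, against 5130, 5 and 24 without it. Without any one library these counts lay between 4069 and 5358, 4 and 5, and 16 and 22. A minimum log2 fold-change of 1 left 1600, 2 and 7, since it removes genes by itself. The median-coverage estimate called 3 Notch pathway genes and 10 of the others, with 7 and 44 tested, and 3716 of all 13026 genes. Counting each distinct sequence once called 15 of 47 others (the cause was not tested) and 3695 of all 11078 genes. The fold changes of Notch2 and Jag1, neither of them called, turned sign. Notch2 was 0.00644 with distinct sequences and between -0.115 and 0.0792 without any one library, and Jag1 was 0.11 with distinct sequences, 0.0345 with median coverage, 0.000987 after thinning and between -0.0664 and 0.00539 without any one library. A minimum of 1 CPM in 3 libraries also tested 11125 genes and gave identical values. Of 262 alternative values for named genes, 246 had the same sign and the same call. They include the identical values of the 1 CPM minimum and leave out settings in which a gene was not tested. Depth limits the results of Notch3, Dll1 and Hey1, which had the fewest reads of the 10 genes.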
